A study of Rattus norvegicus with 9 samples.

Results

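Lysosomal genes were followed in primary rat osteoblasts. They were 8 enzymes of glycosaminoglycan breakdown, 10 glycosidases, 6 lipid enzymes and cofactors, 9 proteases, 8 membrane and transport proteins, 3 proton pump subunits and 3 transcription factors of the MiT/TFE family (Tfeb, Tfe3 and Mitf). The 47 members were taken by gene symbol from the 19085 genes in the table, and each symbol stood on 1 gene. Of these, 46 were tested. The exception was Mcoln1 (ENSRNOG00000000975), a calcium channel of the lysosomal membrane, which had 0 counts in 8 libraries and 3 counts in PD03 library 2. A count of 0 allows up to 3 counts, so its level was not detectable at this depth.

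RNA came from 9 libraries, 3 per group, of first-passage osteoblasts isolated from the calvaria of male Sprague-Dawley rats 24 hours old. The cells had 7 days of osteogenic induction. The control group had induction medium alone, the thrombin group also had 20 U/mL thrombin, and the PD03 group had 20 U/mL thrombin with 0.1 μM PD0325901. Thrombin is a coagulation protease that signals through protease-activated receptors, and PD0325901 (PD03) inhibits MEK, the kinase that activates Erk1/2. No group had PD03 without thrombin, so an effect of PD03 alone cannot be told apart from its effect on cells given thrombin. The labels call the tissue knee, against a protocol that names calvaria. The sources used here describe 3 independent samples per group without saying whether they came from separate animals, so the tests measure the spread between these samples.

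The lysosome is the acidic compartment in which hydrolases break down proteins, glycans and lipids delivered by endocytosis and autophagy. Its enzymes need the low pH that the vacuolar proton pump keeps up, and most of the soluble enzymes are sorted there with a mannose phosphate tag. Tfeb, Tfe3 and Mitf bind E-box sequences in the promoters of many lysosomal genes, and phosphorylation, by mTORC1 and also by Erk kinases, holds Tfeb in the cytoplasm. RNA counts show neither the phosphorylation nor the location of these proteins.

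The E-box CACGTG, its longer palindrome TCACGTGA and the M-box TCATGTGA were looked for in 39 members' promoters, from 250 bases before to 50 bases after the start of the gene, as given by RefSeq on GRCr8. Both strands were searched. CACGTG and TCACGTGA read the same on both strands, every TCACGTGA also holds CACGTG, and the M-box was counted in either orientation. The other 8 members were not in that table: Hgsnat, Arsb, Hexa, Asah1, Psap, Ppt1, Ctsb and Atp6v1h. CACGTG stood in 12 of the 39 promoters (30.8%), against 6.42% of all 33469 promoters and 9.54% of the 9906 promoters of tested genes. TCACGTGA stood in 6 members (15.4%): Cln3, Ctsd, Galc, Mcoln1, Lamp1 and Atp6v0d1. It stood in 0.777% of all promoters and 1.73% of those of tested genes. TCATGTGA stood in 3 members (7.69%), which were Galns, Tpp1 and Cd63, against 1.16% of all promoters and 0.828% of those of tested genes. In 56 promoters of the other lysosomal genes described below, CACGTG stood in 19.6%, TCACGTGA in 12.5% and TCATGTGA in 12.5%. These are matches of letters, not sites shown to be bound.

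Lamp1, which encodes an abundant glycoprotein of the lysosomal membrane, had 5 matches to CACGTG within 180 bases, 2 of them within TCACGTGA. The stretch runs from 200 to 21 bases upstream of the gene start (chr16:83075084-83075263, minus strand, GRCr8) and is shown because no other member had as many matches, with the matches in capitals.
Lamp1: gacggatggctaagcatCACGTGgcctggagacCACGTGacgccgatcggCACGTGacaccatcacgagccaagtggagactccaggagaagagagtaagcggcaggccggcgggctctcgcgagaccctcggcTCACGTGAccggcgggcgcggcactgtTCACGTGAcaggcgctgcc
The other 5 members with the longer palindrome are shown with 10 bases on each side and the palindrome in capitals. In Mcoln1 the match began at base 4 of the gene, and in the other 4 it lay 11 to 53 bases upstream.
Ctsd (chr1:206968815-206968842, minus strand): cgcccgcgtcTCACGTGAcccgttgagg
Cln3 (chr1:190597951-190597978, minus strand): acgggtactgTCACGTGAtccccaacct
Galc (chr6:123245563-123245590, minus strand): ggtgccacagTCACGTGAcccgcacaat
Atp6v0d1 (chr19:50357284-50357311, minus strand): cccattgtggTCACGTGAgatgcagtgc
Mcoln1 (chr12:6358251-6358278, plus strand): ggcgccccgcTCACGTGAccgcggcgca
Idua had the only match to CACGTG among the promoters searched of the 7 members with a difference above the fold threshold described below (Asah1 was not in the table), and Tpp1 is shown for its 2 matches to the M-box, 1 in each orientation, in capitals.
Idua (chr14:1190916-1190941, minus strand): ggcgaatggtCACGTGgggcgttacc
Tpp1 (chr1:169515949-169515988, minus strand): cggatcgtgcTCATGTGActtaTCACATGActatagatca

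Total counts lay between 15447832 and 19841468 per library, and each tested member had at least 86 counts in every library. Levels are given as CPM, the count of a gene relative to the total of its library, scaled by the trimmed mean of M-values (TMM). Differences were tested with edgeR's quasi-likelihood method over 13256 genes, with n = 3 libraries a group. A gene is said to have risen or fallen at an adjusted p-value below 0.05, and a call needed in addition an absolute log2 fold change above 0.58, the threshold of the study's methods. Errors of log2 fold changes are standard errors. In bulk RNA, fewer cells of a type and less RNA per cell cannot be told apart.

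The osteoblast label was checked against 8 markers. Col1a1, the main collagen of bone, was at 44300, 49270 and 48760 CPM in the control group, 44500, 42950 and 41100 with thrombin and 73140, 71160 and 72100 with PD03. Runx2, a transcription factor of the osteoblast lineage, was at 41.01, 45.5 and 41.9 CPM in the control libraries, 53.8, 49.7 and 49.8 with thrombin and 29.1, 32.97 and 34.3 with PD03. Alpl was at 1.03, 1.39 and 2.59 CPM in the control libraries, 0.357, 0.329 and 0.350 with thrombin and 2.54, 2.98 and 3.79 with PD03. Sp7 (Osterix) was at 5.06, 3.725 and 3.98 CPM in the control libraries. With thrombin it was at 6.07, 5.43 and 7.11 CPM, and with PD03 at 5.99, 4.08 and 4.78. Unlike Alpl and Col1a1, Runx2 (0.26 ± 0.065, edgeR adjusted p = 0.0022) and Sp7 (0.533 ± 0.175, adjusted p = 0.018) rose with thrombin. With PD03 against thrombin Runx2 was called lower (-0.67 ± 0.067, adjusted p = 2.5e-11). It also fell with PD03 against control (-0.42 ± 0.069, adjusted p = 3.2e-06). Sp7 did not pass with PD03 against either group. The paper reported by qPCR that PD03 reversed a lowering of both genes by thrombin. Phex was at most 1.07 CPM in each library. The late markers Bglap, Ibsp and Dmp1 were under 0.3 CPM in each library, so these late markers were near 0.

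MEK output was checked first. Of 13 genes known to be switched on downstream of Erk, 13 fell with PD03 against thrombin and 11 of them were called, where 6.31% of all tested genes were called lower and 24.5% fell. Their median log2 fold change was -1.17. With thrombin against control 3 of them rose (23.1%) and 4 fell (30.8%), beside 14.1% and 14.6% of all tested genes. With PD03 against control 12 fell (92.3%, beside 20.2% of all tested genes). Dusp4 rose in that comparison (0.56 ± 0.14, edgeR adjusted p = 0.00081). Dusp6, a phosphatase of Erk, was at 31.4, 30.9 and 28.9 CPM in the control libraries, 22.2, 20.5 and 26.5 with thrombin and 4.82, 3.11 and 5.02 with PD03. Its level in the PD03 libraries was below that of every other library, with a log2 fold change of -2.40 ± 0.12 against thrombin (adjusted p = 4.1e-20).

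Thrombin lowered part of the lysosomal genes by small amounts. Against control, 23 of the 46 tested members fell (50%), 4 rose and 19 did not pass the test, where 14.6% of all tested genes fell and 14.1% rose. The median log2 fold change of the members was -0.112, and it was -0.00603 over all tested genes. Only Ctsh was called, among 5.44% of tested genes called lower. No member was called higher by edgeR or DESeq2, against 2.62% of tested genes, and 5 members had an unadjusted p-value under 0.05 in that direction.

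PD03 raised most of the lysosomal genes. Against thrombin, 38 of 46 members rose (82.6%), 3 fell and 5 did not pass, where 25.3% of all tested genes rose and 24.5% fell. The median log2 fold change was 0.359, with a range of -0.199 to 0.973, beside 0.0109 over all tested genes. The 7 called members, Gla, Ctsh, Ctsk, Manba, Aga, Asah1 and Idua, were all higher with PD03 (15.2%, beside 9.61% of tested genes called higher). None was called lower by edgeR or DESeq2, against 6.31% of tested genes, and 3 had an unadjusted p-value under 0.05 in that direction. Most rises were thus under the fold threshold. Without thrombin library 1, the call of Asah1 was lost, and 6 members were called. With library totals in place of TMM scaling 5 were called, as Idua (0.503) and Asah1 (0.524) then lay under the fold threshold. Both also lost their calls with totals without Col1a1 and with FPKM. With 1 added to FPKM the calls of Manba and Aga were lost as well.

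The PD03 group also lay above the control group. In that comparison 34 members rose (73.9%), 1 fell and 11 did not pass, where 19.7% of tested genes rose and 20.2% fell. The median was 0.256, with a range of -0.163 to 0.609, beside -0.00395 over all tested genes. Gla was the only member called higher, beside 4.9% of tested genes. No member was called lower by edgeR or DESeq2, beside 4.07% of tested genes, and 1 had an unadjusted p-value under 0.05 in that direction. The 3 comparisons share libraries (the thrombin group stands in the first 2, with opposite signs), so their values are set side by side and are not independent.

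Most members were well counted, and such genes passed the test more often here. Among the 5742 tested genes with a mean of at least 500 counts, 29.9% rose and 34.1% fell with PD03 against thrombin, with a median of -0.0202. Of the 39 members among them, 34 rose and 2 fell, with a median of 0.34. In thrombin against control, 16.2% of such genes fell, and 21 of the 39 members did.

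**Figure D1:**
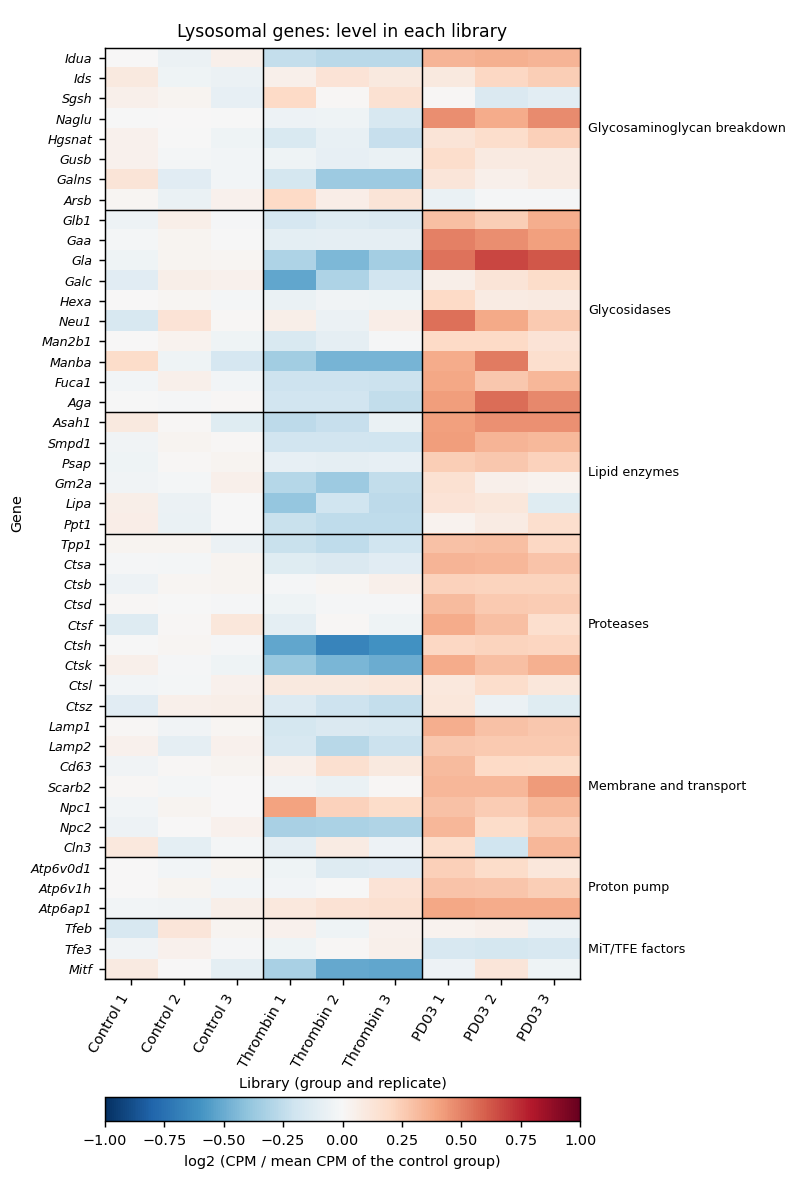
Level of each tested member (rows, grouped by role) in each of the 9 libraries (columns), as log2 of CPM over the mean CPM of the control group. Most rows are blue in the 3 thrombin libraries and red in the 3 PD03 libraries, with Gla reaching the darkest red and Ctsh the darkest blue, while Tfeb stays pale throughout.

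**Figure D2:**
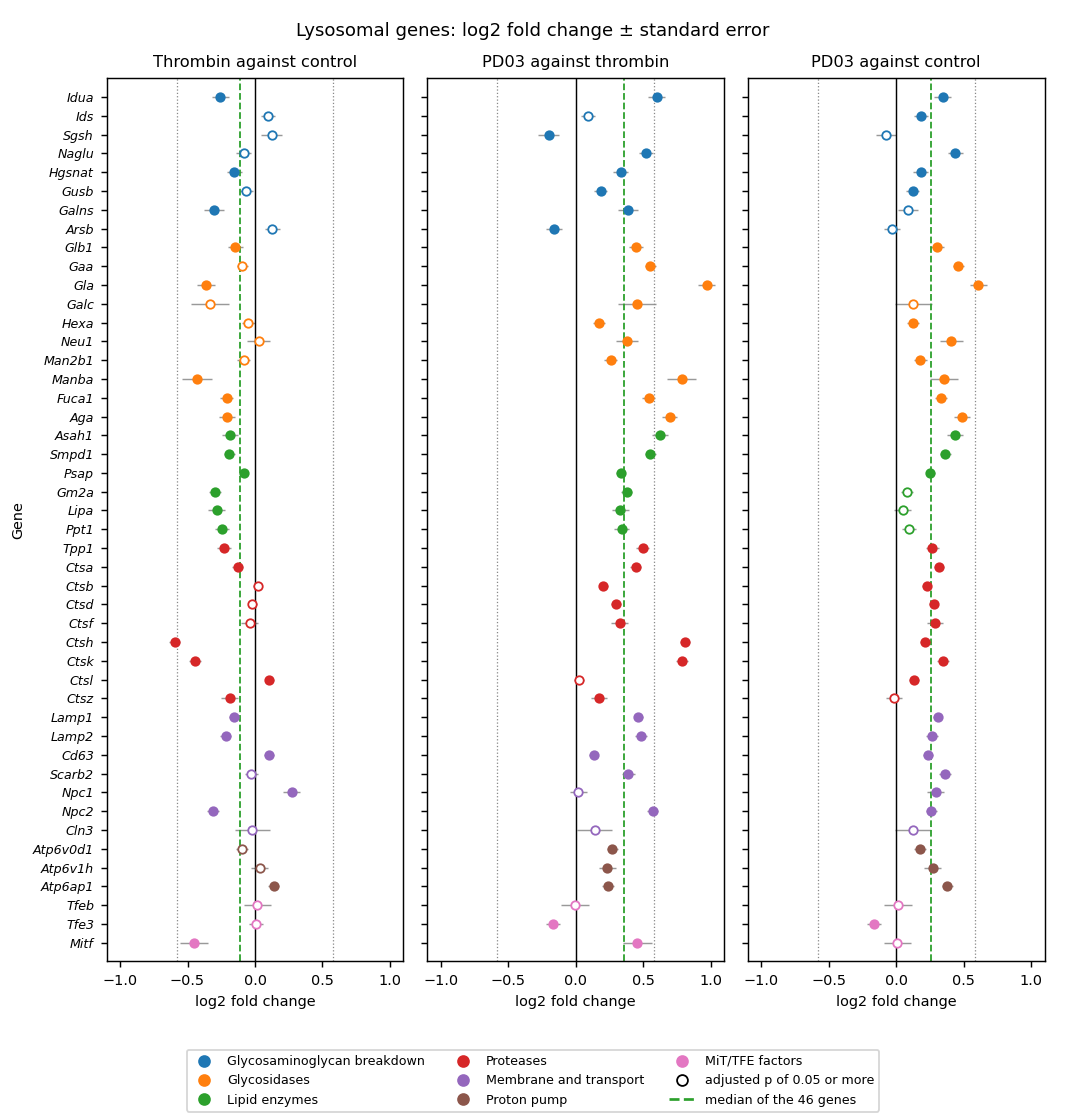
Log2 fold change (x axis) with its standard error for the 46 tested members (y axis) in the 3 comparisons, coloured by role. Filled points passed the test and open points did not, dotted lines mark the fold threshold of 0.58, and the dashed green line marks the members' median, -0.112, 0.359 and 0.256 from left to right.

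Levels between genes are compared per length, as the FPKM values of the authors averaged over the 9 libraries. Cd63, a tetraspanin of late endosomes and lysosomes, was highest at 576 FPKM. The cathepsin Ctsb followed at 293 FPKM, then the saposin precursor Psap at 227.5, Ctsd at 183, Ctsl at 159 and Lamp1 at 156. The lowest of the tested members were Galc at 1.90 FPKM, Mitf at 2.83, Tfeb at 3.97, Manba at 4.06 and Sgsh at 4.64. All members together made up 0.645% to 0.651% of counts in the control libraries, 0.603% to 0.606% with thrombin and 0.698% to 0.724% with PD03. The highest genes dominate these sums, and the groups did not overlap.

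Glycosidases trim sugar chains from glycoproteins and glycolipids. All 10 rose with PD03 against thrombin (median log2 fold change 0.498), 5 of 10 fell with thrombin against control, and 9 of 10 were higher with PD03 than in the control. Of all tested genes 25.3%, 14.6% and 19.7% did so. Of the 10 rises, that of Hexa did not pass with library totals (0.0757, adjusted p = 0.163). Gla (ENSRNOG00000011513), the alpha-galactosidase that splits globosides, was at 37.1, 39.1 and 38.8 CPM in the control libraries, 31.1, 28.1 and 30.2 with thrombin and 55.8, 60.9 and 58.95 with PD03. The 3 groups did not overlap, thrombin being lowest and PD03 highest. Its log2 fold change was -0.36 ± 0.066 for thrombin against control (edgeR adjusted p = 2.7e-05), 0.97 ± 0.063 for PD03 against thrombin (adjusted p = 7.5e-17) and 0.61 ± 0.062 for PD03 against control (adjusted p = 6.6e-11). Its call against control was lost without PD03 library 2, where the log2 fold change was 0.574.

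Manba (ENSRNOG00000052247), the beta-mannosidase, was at 16.8, 14.4 and 13.2 CPM in the control libraries, 11.6, 10.8 and 10.7 with thrombin and 19.2, 21.2 and 16.6 with PD03. The PD03 libraries lay above those with thrombin, with a log2 fold change of 0.78 ± 0.11 (adjusted p = 4.6e-08), but overlapped with the controls. Against control its log2 fold change was 0.35 ± 0.10 (adjusted p = 0.0051), which did not pass with library totals (0.238, adjusted p = 0.0602). It also did not pass without control library 3 or without PD03 library 2. Aga, which releases sugar chains from asparagine, was at 45.6, 45.5 and 46.2 CPM in the control libraries, 40.1, 40.1 and 38.5 with thrombin and 61.2, 67.5 and 63.9 with PD03, and no groups overlapped. Thrombin changed it by -0.21 ± 0.060 (adjusted p = 0.007) and PD03 by 0.70 ± 0.059 against thrombin (adjusted p = 2e-13).

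Fuca1, the alpha-fucosidase, had the highest level per length of these enzymes at 71.0 FPKM. It was at 101, 107 and 102 CPM in the control libraries, 89.5, 89.5 and 88.95 with thrombin and 135, 124 and 130.2 with PD03, again without overlap, and PD03 raised it by 0.54 ± 0.046 on the log2 scale (adjusted p = 3e-13). The other 6 glycosidases rose by 0.17 (Hexa, which acts on gangliosides) to 0.55 (Gaa, which degrades glycogen) against thrombin. Galc, the lowest of the group per length at 1.90 FPKM, was the glycosidase that did not pass against control (0.12 ± 0.14, adjusted p = 0.51).

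Enzymes that dismantle glycosaminoglycans, the sulfated sugar chains of proteoglycans, rose in 5 of 8 cases with PD03 against thrombin (62.5%, beside 25.3% of all tested genes), and Ids did not pass (median 0.259). The 2 that fell were 25% of the group, close to the 24.5% of all tested genes. With thrombin against control 3 fell (37.5%, beside 14.6% of all tested genes) and 5 did not pass. Idua (ENSRNOG00000000043), the alpha-iduronidase of dermatan and heparan sulfate, was at 38.1, 36.6 and 39.4 CPM in the control libraries, 32.3, 31.6 and 31.5 with thrombin and 47.99, 48.6 and 48.2 with PD03. The 3 groups did not overlap, and its log2 fold change was 0.60 ± 0.062 against thrombin (adjusted p = 6.7e-11). Naglu, which acts on heparan sulfate, was at 59.01, 59.5 and 59.1 CPM in the control libraries, 56.98, 57.5 and 53.04 with thrombin and 81.7, 76.5 and 82.2 with PD03. PD03 raised it by 0.52 ± 0.054 (adjusted p = 5.2e-11), while thrombin against control gave -0.084 ± 0.055 (adjusted p = 0.28).

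The genes that fell were a pair of sulfatases. Sgsh, which removes sulfate from heparan sulfate, was at 28.1, 27.6 and 25.6 CPM in the control libraries, 31.2, 27.3 and 30.1 with thrombin and 27.3, 24.6 and 25.2 with PD03. Its PD03 libraries lay below those with thrombin by a narrow margin, with a log2 fold change of -0.20 ± 0.076 (adjusted p = 0.028). Arsb, the arylsulfatase of dermatan sulfate, was at 50.5, 47.7 and 51.4 CPM in the control libraries, 57.2, 52.1 and 54.4 with thrombin and 47.7, 49.5 and 49.5 with PD03, with -0.16 ± 0.058 (adjusted p = 0.021). Neither passed without thrombin library 1, and of the members that fell Tfe3 alone remained. Sgsh also failed without thrombin library 3, PD03 library 2 or PD03 library 3, and Arsb without PD03 library 1. Ids, the sulfatase of iduronate, had a log2 fold change of 0.089 with PD03 against thrombin, which did not pass, and rose by 0.18 against control (adjusted p = 0.0037). The rise of Ids against control did not pass with library totals (0.0665, adjusted p = 0.313).

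Lipid enzymes and their helper proteins all rose with PD03 against thrombin (6 of 6, median 0.359) and all fell with thrombin against control (6 of 6, median -0.219). Of all tested genes 25.3% and 14.6% did so. Against control, 3 of the 6 (Asah1, Smpd1 and Psap) were higher with PD03, beside 19.7% of all tested genes. Asah1 (ENSRNOG00000010034), the acid ceramidase, was at 58.6, 55.3 and 50.3 CPM in the control libraries, 45.6, 46.8 and 52.3 with thrombin and 72.6, 75.0 and 75.3 with PD03. Thrombin library 3 lay within the control range, and the PD03 libraries lay above all others. Its log2 fold change was 0.62 ± 0.060 against thrombin (adjusted p = 8.9e-12). Its fall with thrombin (-0.19 ± 0.062, adjusted p = 0.02) did not pass without control library 1 or 2 or thrombin library 1 or 2.

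Psap, whose product is cut into the saposins that present lipids to enzymes, was at 553, 572 and 580.5 CPM in the control libraries, 537, 534 and 537 with thrombin and 675, 685 and 668 with PD03. It rose by 0.34 ± 0.033 against thrombin (adjusted p = 1.4e-11). Its fall with thrombin was at the edge of the test (-0.084 ± 0.033, adjusted p = 0.04996) and did not pass with DESeq2, with its size factors, without the filter on low counts, or when any 1 of 7 libraries was left out. Smpd1, the acid sphingomyelinase, was at 174, 183 and 180.2 CPM in the control libraries, 157, 157 and 156 with thrombin and 239, 227 and 224 with PD03, with a clear gap between the groups and a log2 fold change of 0.55 ± 0.040 against thrombin (adjusted p = 1.7e-15). For the other 3, Gm2a, Lipa and Ppt1, the log2 fold change was -0.30, -0.28 and -0.25 with thrombin and 0.38, 0.33 and 0.34 with PD03 against thrombin. Against control they were at 0.080, 0.048 and 0.094 and did not pass.

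Among the 9 proteases, 8 rose with PD03 against thrombin (88.9%, median 0.327), and 8 were higher than in the control (88.9%). Of all tested genes 25.3% and 19.7% did so. Thrombin lowered 5 (55.6%) and raised 1 (11.1%), beside 14.6% and 14.1% of all tested genes. Ctsh (ENSRNOG00000014064), a cysteine protease with aminopeptidase activity, had the largest thrombin difference of all tested members. It was at 218, 222 and 218 CPM in the control libraries, 153, 139 and 144 with thrombin and 253, 256 and 255 with PD03. All 3 groups were apart, and the gap between thrombin and control was wide beside the spread within them. Its log2 fold change was -0.59 ± 0.041 with thrombin (adjusted p = 7.1e-16), 0.81 ± 0.040 with PD03 against thrombin (adjusted p = 9.6e-21) and 0.22 ± 0.039 with PD03 against control (adjusted p = 1.7e-05). Without thrombin library 2 the thrombin difference was -0.558 and under the fold threshold.

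Ctsk (ENSRNOG00000021155), the collagen-degrading cathepsin best known from osteoclasts, was at 134, 128 and 125 CPM in the control libraries, 99.03, 93.7 and 91.2 with thrombin and 167, 158 and 165 with PD03. It had the same order of groups without overlap. The log2 fold change was -0.44 ± 0.046 with thrombin (adjusted p = 1.3e-10) and 0.79 ± 0.045 with PD03 against thrombin (adjusted p = 1e-18).

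Ctsb, Ctsd and Ctsl had the highest levels per length of the proteases. Ctsb was at 497, 522 and 525 CPM in the control libraries, 509, 520.5 and 534 with thrombin and 604, 599.9 and 600.3 with PD03. Ctsd, the aspartic protease, was at 371, 367 and 365 CPM in the control libraries, 357, 365 and 364 with thrombin and 457, 440.1 and 439 with PD03. For Ctsb and Ctsd the thrombin libraries overlapped with the controls, and PD03 lay above both. Their log2 fold change with PD03 against thrombin was 0.21 ± 0.034 (adjusted p = 2e-06) and 0.30 ± 0.034 (adjusted p = 9.5e-10). Ctsl was at 357, 359.7 and 375 CPM in the control libraries, 389.5, 390.4 and 395 with thrombin and 391, 410.5 and 393 with PD03, so that the control libraries were lowest. It rose with thrombin (0.11 ± 0.035, adjusted p = 0.02) and gave 0.024 ± 0.035 with PD03 against thrombin (adjusted p = 0.6). The rise with thrombin did not pass with library totals (0.0885, adjusted p = 0.0512). Of the remaining proteases, Tpp1, an exopeptidase, and Ctsa, which protects Glb1 and Neu1 from breakdown, rose by 0.50 and 0.44.

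Membrane and transport proteins of the lysosome showed 5 rises among 7 tested genes with PD03 against thrombin (median 0.392), with Npc1 and Cln3 not passing. These rises were 71.4% of the group, beside 25.3% of all tested genes. Lamp1 was at 465, 448 and 468 CPM in the control libraries, 407, 417 and 413 with thrombin and 590.5, 562 and 554 with PD03. Lamp2, its relative with a role in autophagy, was at 175, 159 and 174 CPM in the control libraries, 152, 139.5 and 146 with thrombin and 204, 202 and 203 with PD03. In both the 3 groups were apart, with a log2 fold change of 0.47 ± 0.035 (adjusted p = 5.5e-15) and 0.48 ± 0.043 (adjusted p = 9.7e-13) with PD03 against thrombin. Cd63 was at 687, 711 and 719 CPM in the control libraries, 732, 789 and 754 with thrombin and 879.7, 811 and 804 with PD03. It rose a little in both steps, by 0.10 ± 0.036 with thrombin (adjusted p = 0.025) and 0.13 ± 0.036 with PD03 against thrombin (adjusted p = 0.0018). Neither rise passed with library totals, and the first was lost without any 1 of control libraries 1 and 2 and thrombin libraries 2 and 3.

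Npc1 and Npc2 work together in the export of cholesterol. Npc2, the soluble sterol-binding protein, was at 203, 209.6 and 216 CPM in the control libraries, 167, 168 and 170.1 with thrombin and 264, 238 and 250.1 with PD03. Thrombin lowered it by 0.31 ± 0.041 on the log2 scale (adjusted p = 6.1e-08), and PD03 raised it by 0.57 ± 0.041 against thrombin (adjusted p = 1.4e-15). Npc1, the membrane transporter that takes up the sterol, was at 37.8, 39.2 and 38.5 CPM in the control libraries, 50.7, 45.1 and 43.6 with thrombin and 47.1, 45.98 and 48.05 with PD03. It rose with thrombin by 0.27 ± 0.064 (adjusted p = 0.00085) and overlapped with those libraries under PD03, with a log2 fold change of 0.019 ± 0.062 against thrombin (adjusted p = 0.83). Scarb2, a receptor that carries glucocerebrosidase to the lysosome, rose by 0.39 against thrombin, and Cln3 was at 0.14 ± 0.13 (adjusted p = 0.38).

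The 3 proton pump genes all rose with PD03 against thrombin (median 0.24), but Atp6v1h did not pass with library totals (0.137, adjusted p = 0.0752). Of all tested genes 25.3% rose. Atp6v0d1, a subunit of the membrane domain, was at 162, 159 and 165 CPM in the control libraries, 157, 148 and 150.3 with thrombin and 191, 184 and 175 with PD03, with a log2 fold change of 0.27 ± 0.042 (adjusted p = 5.8e-07). Atp6ap1, an assembly factor, was at 131, 130.4 and 139 CPM in the control libraries, 144, 148 and 149.5 with thrombin and 175, 173 and 173 with PD03. It rose with thrombin (0.14 ± 0.042, adjusted p = 0.0095) and again with PD03 (0.24 ± 0.041, adjusted p = 4.3e-06), so its groups were ordered control, thrombin, PD03 without overlap. The first rise was lost without control library 2. Atp6v1h, a regulator of the cytosolic domain, rose by 0.24 ± 0.065 (adjusted p = 0.0023).

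**Figure D3:**
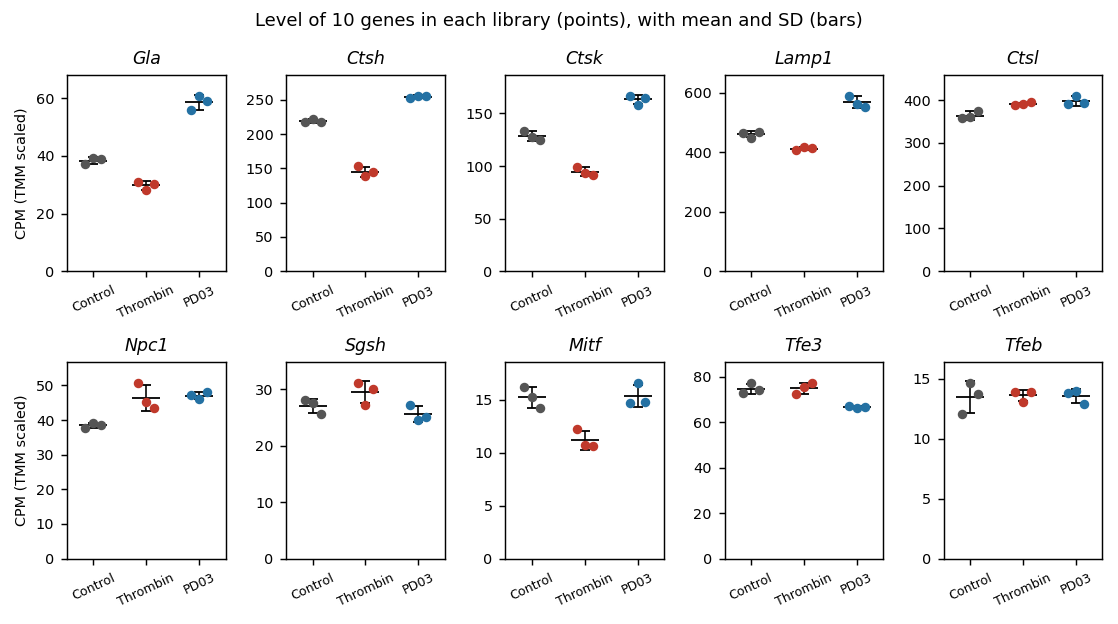
CPM (y axis, from 0) of 10 members in the 9 libraries, with each group's mean and SD as bars. Gla, Ctsh, Ctsk and Lamp1 are lowest with thrombin and highest with PD03, Ctsl and Npc1 are higher with thrombin than in the control, Mitf is lowest with thrombin, Tfe3 is lowest with PD03, and the Tfeb groups overlap.

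Of the transcription factors, Mitf rose, Tfe3 fell and Tfeb did not pass with PD03 against thrombin. Tfeb (ENSRNOG00000014666) was at 12.1, 14.7 and 13.7 CPM in the control libraries, 13.9, 13.1 and 13.9 with thrombin and 13.8, 13.99 and 12.9 with PD03. All groups overlapped. Its log2 fold change was 0.018 ± 0.10 with thrombin (adjusted p = 0.92) and -0.0030 ± 0.10 with PD03 against thrombin (adjusted p = 0.98). Tfe3 (ENSRNOG00000009605), at 21.8 FPKM the most abundant of the family, was at 72.9, 77.03 and 74.2 CPM in the control libraries, 72.4, 75.2 and 77.2 with thrombin and 66.9, 66.2 and 66.8 with PD03. The PD03 libraries lay below all others, with -0.17 ± 0.051 against thrombin (adjusted p = 0.0057) and -0.16 ± 0.052 against control (adjusted p = 0.01).

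Mitf (ENSRNOG00000008658) was lowest with thrombin, but unlike most enzymes it did not pass with PD03 against control (0.0068 ± 0.10, edgeR adjusted p = 0.97). It was at 16.2, 15.3 and 14.2 CPM in the control libraries, 12.2, 10.7 and 10.6 with thrombin and 14.7, 16.6 and 14.8 with PD03. Thrombin lay below both other groups, which overlapped with each other. The log2 fold change was -0.45 ± 0.10 with thrombin (adjusted p = 0.00075) and 0.46 ± 0.10 with PD03 against thrombin (adjusted p = 0.00028). Tfec, the remaining relative of this family and no member, was low, at 3.32, 3.35 and 2.91 CPM in the control libraries, 1.01, 1.59 and 1.17 with thrombin and 2.28, 1.49 and 3.00 with PD03. It fell with thrombin (-1.33 ± 0.27, adjusted p = 0.00015) and rose with PD03 against thrombin (0.84 ± 0.29, adjusted p = 0.013).

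Members with and without a promoter match are set side by side as a description. The 11 tested members with CACGTG in the searched window had a median log2 fold change of 0.327 with PD03 against thrombin, and 9 rose. The 27 without it had a median of 0.392, and 22 rose. For the 5 tested members with TCACGTGA the median was 0.298, and 4 rose. The promoters of Gla, Ctsh, Ctsk, Manba and Aga held none of the 3 motifs in this window.

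Other lysosomal genes, from lists of the same kind, gave 38 rises and 5 falls among 67 tested with PD03 against thrombin (56.7% rose and 7.46% fell, beside 25.3% and 24.5% of all tested genes, with a median of 0.231). Of 23 other hydrolases 18 rose (78.3%) and 5 did not pass. Ctso, a cathepsin, was at 9.95, 12.9 and 14.6 CPM in the control libraries, 5.00, 6.03 and 6.12 with thrombin and 12.1, 10.9 and 12.4 with PD03. It was called lower with thrombin (-1.12 ± 0.14, adjusted p = 1e-08) and higher with PD03 against thrombin (1.04 ± 0.14, adjusted p = 2e-08).

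Of 21 other membrane proteins 13 rose (61.9%) and 2 fell (9.52%) with PD03 against thrombin, beside 25.3% and 24.5% of all tested genes. Sidt2, a lysosomal nucleic acid transporter, was at 158, 166 and 163 CPM in the control libraries, 155, 149 and 143 with thrombin and 249, 259 and 255 with PD03. It was called against thrombin (0.77 ± 0.041, adjusted p = 5.7e-20) and against control (0.65 ± 0.041, adjusted p = 3.2e-17). Slc38a9, an arginine sensor of mTORC1, and Tpcn2, an ion channel, were called against thrombin at 0.72 and 0.63, and Slc36a1, an amino acid exporter, against control at 0.63. Of 12 other pump subunits 5 rose (41.7%) and 7 did not pass.

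Genes that sort enzymes to the lysosome gave 2 rises and 3 falls among 11. These shares, 18.2% and 27.3%, were close to the 25.3% and 24.5% of all tested genes. Sort1, which encodes the receptor sortilin, was at 64.5, 65.5 and 62.6 CPM in the control libraries, 56.8, 58.7 and 59.5 with thrombin and 129.5, 126 and 130.5 with PD03, and its log2 fold change was 1.14 ± 0.049 against thrombin (adjusted p = 4.9e-23). The mannose phosphate receptors were at -0.0081 ± 0.042 (M6pr, adjusted p = 0.89) and 0.0024 ± 0.034 (Igf2r, adjusted p = 0.96). Igf2r rose with thrombin by 0.26 ± 0.035 (adjusted p = 9.2e-08), and M6pr gave 0.10 ± 0.042 (adjusted p = 0.072).

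Of 20 autophagy genes 10 rose and 2 (Atg7 and Uvrag) fell with PD03 against thrombin, which is 50% and 10%, beside 25.3% and 24.5% of all tested genes. Their median was 0.135, beside 0.0109 over all tested genes. Among 16 tested regulators and known targets of Tfeb, 6 rose (37.5%) and 2 fell (12.5%), with a median of 0.145. Those that fell were Mtor (-0.25 ± 0.045, adjusted p = 1.3e-05) and its partner Rptor (-0.22 ± 0.060, adjusted p = 0.0019), and those that rose included Flcn (0.32 ± 0.085, adjusted p = 0.0016), which acts on the Rag GTPases. Rragd, one of these GTPases, was called against control at 1.101 from levels of at most 1.22 CPM.

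**Figure D4:**
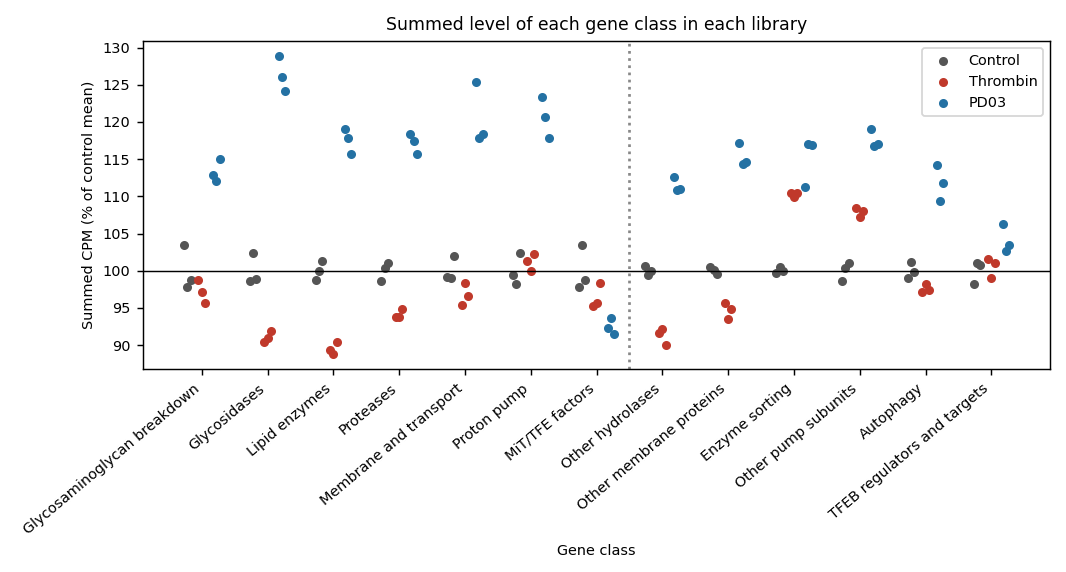
Summed CPM of each gene class in each library (y axis, percent of the control mean, not starting at 0), with members left of the dotted line and other lists to its right. In the glycosidases, lipid enzymes and proteases the thrombin libraries lie below the controls and the PD03 libraries above, while the summed MiT/TFE factors are lowest with PD03 and enzyme sorting genes are already above control with thrombin. High genes weigh most in these sums. The mean sorting sum went from 1293 CPM in the control to 1426 with thrombin, and Igf2r alone from 618.5 to 738.4. In the MiT/TFE sum Tfe3 fell with PD03 against thrombin, while Mitf rose.

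Scaling changed the size of these differences. With library totals alone in place of TMM, the median of all genes for PD03 against control shifted to -0.12, and against thrombin to -0.0877. Without the counts of Col1a1 these were -0.0897 and -0.0493. With all counts in the totals 33 members rose and 3 fell against thrombin (median 0.26), and 25 rose and 3 fell against control (median 0.14). Rises that passed only with TMM were those of Ctsl and Cd63 with thrombin, and of Gusb, Hexa, Ctsz, Cd63 and Atp6v1h against thrombin. Against control they were Ids, Hgsnat, Gusb, Hexa, Man2b1, Manba, Ctsl, Atp6v0d1 and Atp6v1h. Falls that passed only with totals were those of Gaa and Atp6v0d1 with thrombin, and of Sgsh and Arsb against control. Over all genes the calls for PD03 against thrombin turned from 1274 higher and 836 lower to 1022 and 1176, and those against control from 649 and 540 to 470 and 908. This change of scaling shifts every gene by nearly the same amount. The members' median therefore had to stay at the same distance from that of all genes, 0.348 against thrombin and 0.26 against control. That distance is no check on the scaling. Members whose sign turned were Ids, Ctsl and Npc1 against thrombin, Galns, Gm2a, Lipa, Ppt1, Tfeb and Mitf against control, and Tfe3 with thrombin, none of which had passed the test.

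Other cell types that are rich in lysosomes were looked for by their markers. Of 15 myeloid markers 13 were in the table and 2 were tested. Their summed level was 21.8 to 24.4 CPM in the control group, 29.6 to 33.8 with thrombin and 18.4 to 20.1 with PD03. Most of it was Cd14, and the other tested marker, Csf1r, was at 0.435, 0.316 and 0.569 CPM in the control libraries, 0.714, 0.768 and 0.758 with thrombin and 1.17, 1.68 and 0.857 with PD03. Csf1r was called higher with PD03 against control (1.47 ± 0.42, adjusted p = 0.0045). The markers Ptprc, Tyrobp, Aif1 and Ctss were under 0.4 CPM in each library. Of the other untested myeloid markers, Fcer1g reached 0.933 CPM (thrombin library 3), Cd68 0.884 (control library 2) and Lyz2 0.712 (PD03 library 2). For Tyrobp and Ctss the PD03 libraries lay above those with thrombin, at 6 counts or fewer. The remaining untested myeloid markers overlapped between these 2 groups. Of 8 osteoclast markers 7 were in the table, and their sum was 22.8 to 23.9, 29.9 to 33.0 and 26.4 to 29.0 CPM. It came almost wholly from Itgb3 and Acp5. Acp5, an acid phosphatase, rose with PD03 against thrombin (0.37 ± 0.13, adjusted p = 0.012) and against control (0.36 ± 0.13, adjusted p = 0.019), and its PD03 libraries lay above all others, while Itgb3 fell with PD03 against thrombin (-0.47 ± 0.095, adjusted p = 6.4e-05). The defining markers Ocstamp, Dcstamp, Tnfrsf11a and Atp6v0d2 were under 0.2 CPM in each library, with most at 0. Oscar reached 0.598 CPM (control library 1), and its groups overlapped. The 4 endothelial markers in the table summed to 6.69 to 7.77, 6.36 to 8.51 and 11.1 to 12.6 CPM, most of it Tek. Both tested ones, Tek and Kdr, were called higher with PD03 against thrombin. Tek was at 0.62 ± 0.14 (edgeR adjusted p = 0.00019) and Kdr at 1.425 ± 0.37 (adjusted p = 0.0014). Against control Tek rose by 0.56 ± 0.14 (adjusted p = 0.00099), and Kdr was called at 1.72 ± 0.39 (adjusted p = 0.00038). Kdr was low, at 2.07 CPM or less in each library. The part of these cell types in the result was not tested.

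In the RefSeq table for GRCr8, a newer build than those named for these counts, 23 of the 47 members overlap another gene, among them Idua (Slc26a1 and Dgkq), Sgsh (Slc26a11), Npc1 (Rmc1), Psap (Cdh23) and Cd63 (Rdh5). The sources used here do not say whether the libraries and the counting kept strand, so reads of such pairs may not have been told apart.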

How the data were processed

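Polyadenylated RNA of 9 osteoblast libraries in 3 groups of 3 was sequenced after library preparation with the NEBNext Ultra kit. The authors deposited raw read counts per gene and FPKM values. FPKM equalled the count divided by gene length and library total for each gene (lengths came out whole within 0.01). The paper names fastp, HISAT2, featureCounts and the genome Rnor_6.0, whereas the submitters' processing notes name HISAT2, HTSeq 0.13.5 and mRatBN7.2, so counter and build are uncertain. The dose of PD03 is given in μM in the design text and in mM in one protocol. No source used here names the release of the gene annotation.

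Counts were filtered with filterByExpr (minimum count 10), scaled by TMM and fitted with edgeR 4.0.16 in R 4.3.3 as 1 model over the 3 groups, with Benjamini-Hochberg adjustment over 13256 genes. The biological coefficient of variation was 4.28%. No 2 replicates were as alike as repeat counts of 1 library (chi-square over its degrees of freedom 1.82 to 3.99), so all libraries were kept. FPKM served for levels between genes and as an alternative with 1 or 0.1 added in limma 3.58.1. DESeq2 1.42.0, limma voom, glmTreat, other scalings, filters, fold thresholds, a replicate block and each library left out were also tried. Same-numbered libraries did not deviate together (correlations -0.0425 to 0.0831). Scripts were tested on simulated data. Figures were drawn with matplotlib 3.10.9 in Python 3.11.15.

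The members and the other lists were chosen with earlier results of these data known. Values per library are given for the 3 transcription factors, for called members, and for the member with the largest PD03 difference and the one with the highest FPKM in each role. Of other lists at most 4 called genes each were named. Any other gene named was chosen after its values were seen. Totals without Col1a1 and the comparison among genes with at least 500 counts were also added after seeing the data. Counting limits cover counting error only.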

Additional observations from a re-analysis of the deposited data

How the results depend on the processing

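With library totals alone, 2 members rose with thrombin against control (median -0.129), the median for PD03 against thrombin was 0.26, and for PD03 against control 0 were called higher, 3 fell and the median was 0.14. With totals without Col1a1 the values were 2 and -0.137 for thrombin against control, 0.298 for PD03 against thrombin, and 0 called and 0.17 for PD03 against control. FPKM with 1 added gave medians of -0.126, 0.235 and 0.137, with 3 members called higher against thrombin and 0 against control. FPKM with 0.1 added gave 2 rises and a median of -0.129 with thrombin, a median of 0.257 against thrombin, and 0 called, 2 falls and a median of 0.139 for PD03 against control. These shifts were larger than the replicate SD of the members' median, 0.011. Without the filter on low counts the thrombin median was -0.0879. Both glmTreat, which tests against the fold threshold, and a fold threshold of 1 left 0 called members with thrombin and 0 for PD03 against control. Against thrombin glmTreat called 3 (Gla, Ctsh and Ctsk) and the threshold of 1 called 0.

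With each library left out, thrombin against control gave 0 to 1 members called lower, 1 to 4 rises and a median of -0.122 to -0.103. PD03 against thrombin gave 6 to 8 called higher, 1 to 3 falls and a median of 0.344 to 0.383. PD03 against control gave 0 to 1 called higher and a median of 0.232 to 0.262. The replicate block changed no call: against thrombin 38 members rose and 3 fell with a median of 0.358. The numbers share no stated pairing. No result turned its direction past the threshold in any setting tried.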
